A study of Mus musculus with 6 samples.

Results

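The genes described here were the 4 receptor chains of type I and type II interferon (Ifnar1, Ifnar2, Ifngr1 and Ifngr2), the 3 Janus kinases bound to them (Jak1, Jak2 and Tyk2) and 2 of the STAT factors these kinases phosphorylate (Stat2 and Stat3). They were chosen by symbol, and all 9 were found among the 56884 genes listed and among the 15426 genes tested. RNA was sequenced at day 2 of beige adipogenic differentiation in 6 libraries, 3 from cells that overexpress PPARγ2 K382Q (K382Q cells) and 3 from cells that overexpress PPARγ2 K382R (K382R cells). Both groups were made from an immortalized line of stromal vascular fraction (SVF) cells of mouse subcutaneous white adipose tissue (scWAT), and the labels spell the genotypes PPARr2 K382Q and PPARr2 K382R. The cells of each group were stably infected, puromycin-selected cells carrying HA-tagged mouse PPARγ2 on a retroviral vector, with lysine 382 changed to glutamine, which resembles acetylated lysine, or to arginine, which resembles deacetylated lysine. Both received the same differentiation medium, which held IBMX, indomethacin, dexamethasone, insulin, T3 and rosiglitazone, a ligand of PPARγ. No library of untransduced or wild-type PPARγ2 cells was analysed here, so a difference between the mutants cannot be assigned to either of them. The labels call the replicates biological, and nothing says whether they were separate infections or cultures of 1 selected line, so p-values measure only the spread between these samples.

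Type I interferons, such as IFN-α and IFN-β, bind a receptor made of IFNAR1 and IFNAR2, which hold the kinases TYK2 and JAK1. IFN-γ binds IFNGR1 and IFNGR2, which hold JAK1 and JAK2. The kinases phosphorylate STAT proteins, which move to the nucleus, where STAT2 joins another STAT and IRF9 in the complex ISGF3 that binds interferon-stimulated response elements (ISRE). STAT dimers bind gamma-activated sites (GAS), and STAT3 is best known as the factor of the IL-6 family of cytokines. Adipocytes and their precursors carry these receptors and answer interferon with the antiviral genes that most cells induce.

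Promoters are shown for both chains of the type I receptor and for both STATs, since these pairs had the largest differences in ratio among the 5 described below, and since 3 of the 4 hold one of the motifs searched. RefSeq entries matched all 9 members. Each sequence of 300 bases runs from 250 bases before to 50 bases from the RefSeq start site; the table is of GRCm38.p6, and the coordinates given are where the same 300 bases lie in GRCm39, the build of the files. Capitals mark a GAS (TTCNNNGAA) or an ISRE (TTTCNNTTTC).
Ifnar1, chr16:91281853-91282152, strand +: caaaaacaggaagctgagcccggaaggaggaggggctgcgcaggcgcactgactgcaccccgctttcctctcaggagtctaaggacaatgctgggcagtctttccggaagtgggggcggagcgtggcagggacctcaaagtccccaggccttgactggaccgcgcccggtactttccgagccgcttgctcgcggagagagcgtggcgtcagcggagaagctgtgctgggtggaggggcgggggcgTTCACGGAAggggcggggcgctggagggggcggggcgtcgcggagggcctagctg
Ifnar2, chr16:91169421-91169720, strand +: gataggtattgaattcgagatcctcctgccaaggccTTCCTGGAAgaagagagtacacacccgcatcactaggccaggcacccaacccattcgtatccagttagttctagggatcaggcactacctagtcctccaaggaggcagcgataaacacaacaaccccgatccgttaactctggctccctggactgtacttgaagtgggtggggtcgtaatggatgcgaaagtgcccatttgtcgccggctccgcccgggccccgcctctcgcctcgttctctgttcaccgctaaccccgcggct
Stat2, chr10:128106117-128106416, strand +: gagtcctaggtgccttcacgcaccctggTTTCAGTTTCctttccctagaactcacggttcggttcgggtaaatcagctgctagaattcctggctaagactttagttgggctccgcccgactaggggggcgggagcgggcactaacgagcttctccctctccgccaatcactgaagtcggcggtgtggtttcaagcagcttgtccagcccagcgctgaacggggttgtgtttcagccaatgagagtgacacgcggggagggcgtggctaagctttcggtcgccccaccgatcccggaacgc
Stat3, chr11:100830317-100830616, strand -: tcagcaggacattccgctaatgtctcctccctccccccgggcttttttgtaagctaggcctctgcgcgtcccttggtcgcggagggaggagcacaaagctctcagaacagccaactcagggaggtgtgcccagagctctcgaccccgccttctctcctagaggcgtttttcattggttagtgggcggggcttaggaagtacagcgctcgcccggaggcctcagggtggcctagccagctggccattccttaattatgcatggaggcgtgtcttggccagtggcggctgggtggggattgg

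On both strands, the GAS letters occurred in 8.30% of 32851 mouse promoters of this length, the ISRE letters in 3.44% and a PPAR response element (AGGTCANAGGTCA) in 0.0396%. Among the 9 members, the GAS letters were found once in Ifnar1 (TTCACGGAA, from position -5 to 4 around the start site) and once in Ifnar2 (TTCCTGGAA, from -214 to -206), and the ISRE letters once in Stat2 (TTTCAGTTTC, from -222 to -213). No match overlapped another. None of these letters was found in these windows of Ifngr1, Ifngr2, Jak1, Jak2, Tyk2 and Stat3. A match is a description of the sequence and was not measured as a bound site.

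Expression is given in TPM, the share of a gene among all transcripts of a library, which is corrected for transcript length and can be compared between genes. In each class the summed level was lower in K382Q than in K382R cells. Summed over the 4 receptor chains, the level was 199, 199 and 195 TPM in K382Q cells and 245, 242 and 255 TPM in K382R cells, 19.9% lower in K382Q. The 3 kinases summed to 138, 128 and 131 TPM against 153, 159 and 156 TPM, 15.2% lower. The 2 STATs summed to 93.0, 94.8 and 92.7 TPM against 135, 135 and 137 TPM, 31.0% lower. In none of the 3 classes did the libraries of the groups overlap. When the libraries were scaled by median ratios, the sums were 10.9% lower for the receptor chains, 5.72% lower for the kinases and 23.3% lower for the STATs, again without overlap. These are bulk samples, in which fewer cells of a type and less RNA per cell cannot be told apart.

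**Figure D1:**
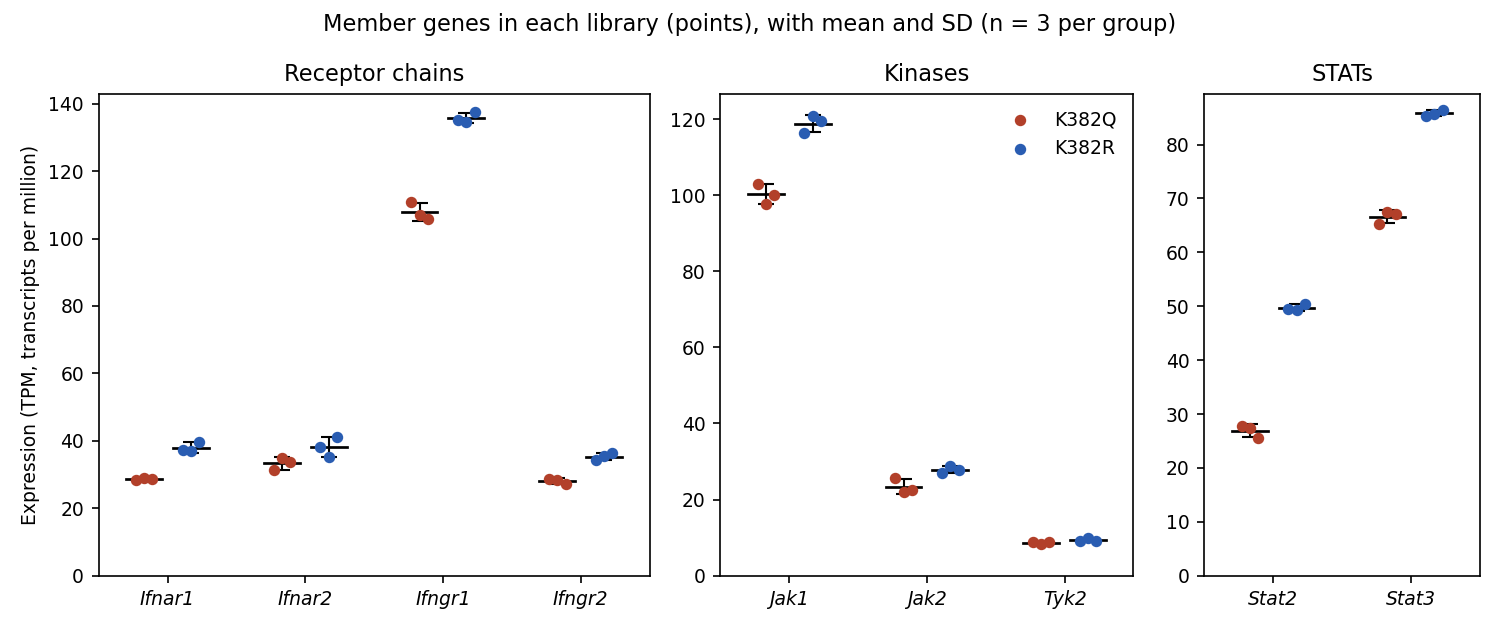
Expression in TPM (vertical axes, linear from 0, a separate scale in each panel) of the 9 members in each of 3 K382Q and 3 K382R libraries (points), with mean and SD. All K382Q points lie below all K382R points for each gene. Relative to a gene's level, they are closest for Ifnar2 (34.97 against 35.11 TPM) and Tyk2 (8.82 against 9.12 TPM) and farthest apart for Stat2 (27.8 against 49.3 TPM). In TPM the gap is wider for Ifngr1 (111.0 against 134.5 TPM) than for Stat2.

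The mutants were compared by limma, which was fitted to log2(TPM + 0.5), with Benjamini-Hochberg adjustment over all genes tested, and a log2 fold change is K382Q minus K382R throughout. At an adjusted p-value under 0.05, 8 of the 9 members were lower in K382Q cells and 0 were higher, and Tyk2 was not called. Of all genes tested, 36.9% were lower by the same rule and 11.1% were higher. All 9 members had every K382Q library below every K382R library, which was so for 42.8% of all genes tested. None of the 9 passed the study's fold change of 2, which 2.61% of all genes tested did downwards. The median log2 fold change was −0.32 over the members and −0.14 over all genes tested.

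Over all genes tested the median on the deposited TPM thus lay below 0. The adipocyte marker Fabp4, a fatty acid-binding protein, took 46394 to 50292 TPM in K382Q and 37390 to 38541 TPM in K382R cells, and its part in that median was not tested. When libraries were scaled by median ratios, the median over all genes tested moved to 0.0039, and 6 of the 9 members were lower (20.4% of all genes tested were, and 19.9% were higher). Ifnar1, Ifngr1, Ifngr2, Jak1, Stat2 and Stat3 were the 6, and the same number of members kept all K382Q libraries below all K382R libraries (26.4% of all genes tested). On this scale the members' median was −0.17.

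**Figure D2:**
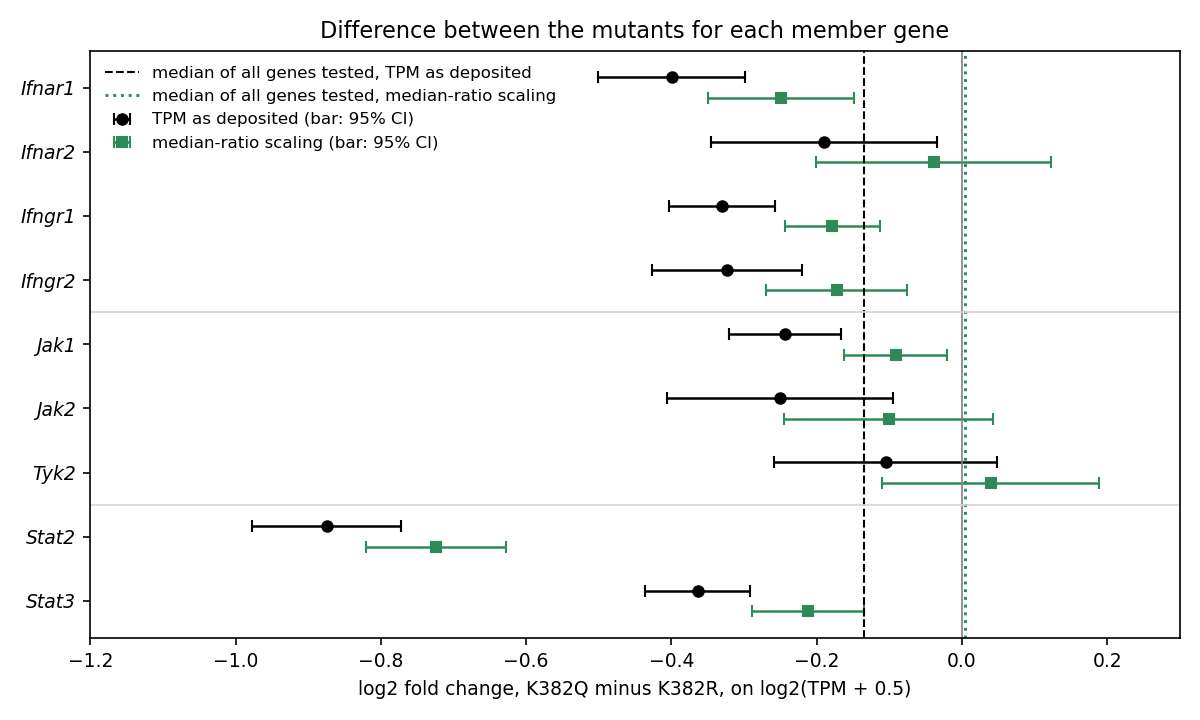
Log2 fold change of each member, K382Q minus K382R (horizontal axis), with 95% confidence intervals (bars), on the deposited TPM (circles) and after median-ratio scaling (squares). Dashed and dotted lines give the medians of all genes tested, −0.14 and 0.0039; Stat2 lies at −0.87 and −0.72, and the squares of Ifnar2, Jak2 and Tyk2 have intervals that include 0.

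Of the receptor chains, Ifnar1, the chain that holds TYK2, was at 28.4, 28.9 and 28.7 TPM in K382Q cells and at 37.2, 37.0 and 39.8 TPM in K382R cells. The K382Q libraries had a coefficient of variation of 0.95%, and all lay below the K382R libraries. The level was 24.5% lower in K382Q, with a log2 fold change of −0.40 (SE 0.044, 95% CI −0.50 to −0.30, adjusted p = 0.000207), and −0.25 after median-ratio scaling (adjusted p = 0.00292). Lower log2 fold changes were seen in 17.9% of all genes tested.

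Ifnar2, the high-affinity chain that holds JAK1, was at 31.3, 35.0 and 33.6 TPM in K382Q and at 38.1, 35.1 and 41.0 TPM in K382R cells. The highest K382Q library nearly met the lowest K382R library. The log2 fold change of −0.19 (SE 0.067, 95% CI −0.35 to −0.03) was called at an adjusted p of 0.0484, and after median-ratio scaling it was −0.039 (95% CI −0.20 to 0.12, adjusted p = 0.693). The call was lost when K382Q replicate 1 (−0.15, adjusted p = 0.133), K382Q replicate 3 (−0.20, adjusted p = 0.0922), K382R replicate 1 (−0.19, adjusted p = 0.108) or K382R replicate 3 (−0.14, adjusted p = 0.147) was left out. It was kept in 5 of the 23 other fits that were tried.

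The ligand-binding chain of the IFN-γ receptor, Ifngr1, was the most abundant of the 9 members, at 111, 107 and 106 TPM in K382Q and 135, 134 and 138 TPM in K382R cells. Its partner Ifngr2, the chain that holds JAK2, was at 28.7, 28.4 and 27.2 TPM against 34.2, 35.4 and 36.3 TPM. Both chains were lower in every K382Q library, and by nearly the same share, 20.5% for Ifngr1 and 20.4% for Ifngr2. The log2 fold change of Ifngr1 was −0.33 (SE 0.031, adjusted p = 9.85e-05; −0.18 after median-ratio scaling, adjusted p = 0.00187). That of Ifngr2 was −0.32 (SE 0.044, adjusted p = 0.000651; −0.17 after median-ratio scaling, adjusted p = 0.0134). On the latter scale the call of Ifngr2 was lost without K382R replicate 3 (−0.15, adjusted p = 0.0511).

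Among the kinases, Jak1, shared by both interferon receptors, was at 103, 97.7 and 100.2 TPM in K382Q and at 116, 121 and 119 TPM in K382R cells. The groups were apart, and the level was 15.6% lower in K382Q (log2 fold change −0.24, SE 0.033, adjusted p = 0.000627). After median-ratio scaling the difference was −0.091 (95% CI −0.16 to −0.02, adjusted p = 0.0457). That call on the scaled values was kept in 1 of the 6 fits that leave out a library, the one without K382Q replicate 1, and without K382R replicate 2 it was −0.079 (adjusted p = 0.145).

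Jak2, the kinase of IFNGR2, was at 25.8, 22.1 and 22.4 TPM in K382Q and at 27.1, 28.9 and 27.7 TPM in K382R cells. K382Q replicate 1 stood above the other K382Q libraries but below every K382R library. The level was 16.1% lower (log2 fold change −0.25, SE 0.067, adjusted p = 0.0162), and −0.10 after median-ratio scaling (95% CI −0.24 to 0.04, adjusted p = 0.237). The call was also lost without K382Q replicate 2 (−0.21, adjusted p = 0.0524), K382Q replicate 3 (−0.22, adjusted p = 0.0554) or K382R replicate 2 (−0.23, adjusted p = 0.0564).

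Tyk2, the kinase of IFNAR1, was the lowest of the members at 8.82, 8.43 and 8.75 TPM in K382Q and 9.12, 9.80 and 9.17 TPM in K382R cells. Although the libraries did not overlap, the difference of −0.11 (SE 0.066, 95% CI −0.26 to 0.05, adjusted p = 0.231) did not pass the test. It was 0.040 after median-ratio scaling (95% CI −0.11 to 0.19), on the other side of 0. The antisense gene 1700084C06Rik, which lies within Tyk2, was at 0.566 TPM or less. These intervals bound the difference on either scale well under the 2-fold threshold.

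Stat2, the member of ISGF3 that binds type I receptor chains, had the lowest log2 fold change of the 9. It was at 27.8, 27.4 and 25.6 TPM in K382Q and at 49.6, 49.3 and 50.4 TPM in K382R cells, with the groups far apart. The K382Q level was 45.9% lower, with a log2 fold change of −0.87 (SE 0.044, 95% CI −0.98 to −0.77, adjusted p = 4.64e-06), and −0.72 after median-ratio scaling (adjusted p = 1.24e-05). Only 3.99% of all genes tested had a lower log2 fold change. The call was kept in all 23 other fits that were tried, over which the log2 fold change ran from −0.90 to −0.69. Its promoter above was the only one of the members' that held the ISRE letters.

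Stat3 was at 65.2, 67.5 and 67.1 TPM in K382Q and at 85.3, 85.7 and 86.4 TPM in K382R cells. The groups did not overlap, and the K382R libraries had a coefficient of variation of 0.68%. The level was 22.4% lower (log2 fold change −0.36, SE 0.031, adjusted p = 5.98e-05; −0.21 after median-ratio scaling, adjusted p = 0.00179). The last 72 bases of Stat3 and Stat5a overlap on opposite strands, and reads there could belong to either gene.

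Ranked by mean TPM, the members stood in K382Q cells in the order Ifngr1 (107.8 ± 2.76, SD, n = 3), Jak1 (100.3 ± 2.65), Stat3 (66.6 ± 1.21), Ifnar2 (33.3 ± 1.86), Ifnar1 (28.7 ± 0.27), Ifngr2 (28.1 ± 0.81), Stat2 (26.9 ± 1.17), Jak2 (23.4 ± 2.04) and Tyk2 (8.67 ± 0.21). The libraries of Ifnar1 and Ifngr2, of Ifngr2 and Stat2, and of Stat2 and Jak2 overlapped, so these neighbours were not separated. In K382R cells the order was Ifngr1 (135.7 ± 1.58), Jak1 (118.8 ± 2.26), Stat3 (85.8 ± 0.58), Stat2 (49.8 ± 0.60), Ifnar2 (38.1 ± 2.95), Ifnar1 (38.0 ± 1.55), Ifngr2 (35.3 ± 1.08), Jak2 (27.9 ± 0.92) and Tyk2 (9.36 ± 0.38), and of neighbours Ifnar2 and Ifnar1 overlapped. Stat2 stood at rank 7 in K382Q cells, below all 4 receptor chains by its mean, and at rank 4 in K382R cells, below Ifngr1 and above the other 3. Ifngr1 was at or above 90.3% of all genes tested, and Tyk2 at or above 39.9%. The mean coverage behind the members ran from 14.4 reads per base (Tyk2) to 177 reads per base (Ifngr1).

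Ratios of genes within a library do not depend on how libraries are scaled, and 5 were compared. Relative to Stat3, Stat2 was at 0.427, 0.406 and 0.382 in K382Q and at 0.581, 0.575 and 0.584 in K382R libraries, a difference of −0.52 in log2 ratio with no overlap. Stat2 made up 28.8% ± 1.14 of the TPM of both STATs in K382Q and 36.7% ± 0.16 in K382R cells (SD, n = 3). Ifnar2 relative to Ifnar1 went the other way, at 1.10, 1.21 and 1.17 against 1.02, 0.949 and 1.03 (difference in log2 ratio 0.21, no overlap). Tyk2 relative to Jak1 was also higher in each K382Q library (0.0856, 0.0862 and 0.0873 against 0.0784, 0.0812 and 0.0768, difference 0.13).

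For the chains of the IFN-γ receptor the groups overlapped: Ifngr2 relative to Ifngr1 was 0.259, 0.266 and 0.257 in K382Q and 0.253, 0.263 and 0.264 in K382R libraries. Jak2 relative to Jak1 overlapped too, at 0.250, 0.2256 and 0.224 against 0.233, 0.239 and 0.232. With 3 against 3 libraries the two-sided exact permutation test cannot give a p below 0.1, which it gave for the first 3 ratios (adjusted over the 5, p = 0.167), while it gave p = 0.9 for Ifngr2 to Ifngr1 and p = 1 for Jak2 to Jak1.

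**Figure D3:**
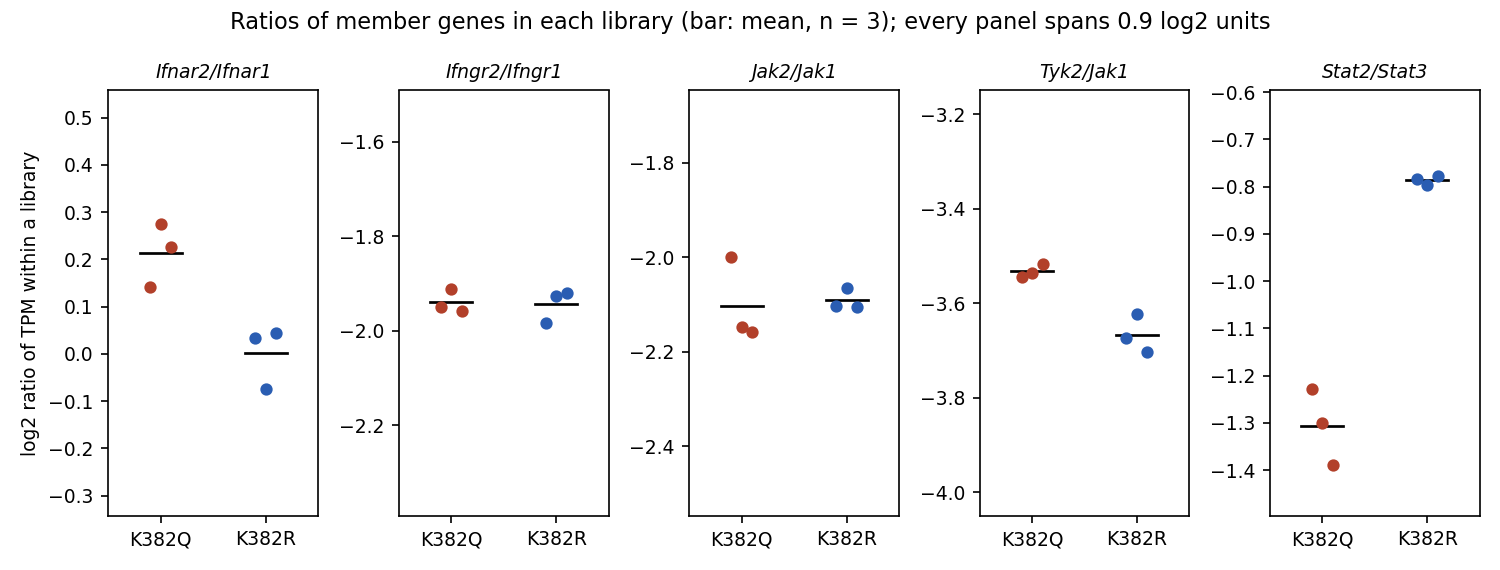
Log2 ratio of TPM of a pair of members within each library (vertical axes, each spanning the same number of log2 units), 3 K382Q and 3 K382R libraries as points and means as bars. The groups stand apart for Ifnar2/Ifnar1, Tyk2/Jak1 and Stat2/Stat3, by 0.21, 0.13 and −0.52, and overlap for Ifngr2/Ifngr1 and Jak2/Jak1.

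Ifnar1, Ifnar2 and Ifngr2 lie on the same strand of chromosome 16 with Il10rb, a chain of the receptors for IL-10 and for type III interferon, in the order Ifnar2, Il10rb, Ifnar1, Ifngr2 (chr16:91169671-91362511 in GRCm39, 192.8 kb). Of the 12 genes listed in this block, 5 were tested, the fifth being the non-coding A930006K02Rik. Il10rb was at 13.9, 15.1 and 16.7 TPM in K382Q and at 21.0, 19.0 and 18.8 TPM in K382R cells (log2 fold change −0.36, adjusted p = 0.00705), and it was not called after median-ratio scaling (−0.21, adjusted p = 0.0827). With 250 kb on either side, 13 genes were tested, and those outside the block all lay on the side of Ifngr2. Of the 13, 9 were lower and 0 higher, against 36.9% and 11.1% of all genes tested. After median-ratio scaling 5 were lower and 1 higher, against 20.4% and 19.9% of all genes tested. Neighbours outside the receptor family were among them: Gart, an enzyme of purine synthesis, at −0.64 (adjusted p = 3.44e-05), Itsn1, an endocytic scaffold, at −0.63 (adjusted p = 3.19e-05) and Tmem50b at −0.51 (adjusted p = 0.000101) had lower log2 fold changes than the 3 receptor chains. Dnajc28, which lies between Tmem50b and Gart, was at 0.21 (adjusted p = 0.115) and was the gene called higher after median-ratio scaling (0.34, adjusted p = 0.0231). These neighbours were named after their values were seen. Ifngr1 and Stat2 lie on chromosome 10, and the other members on chromosomes 4 (Jak1), 9 (Tyk2), 11 (Stat3) and 19 (Jak2).

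**Figure D4:**
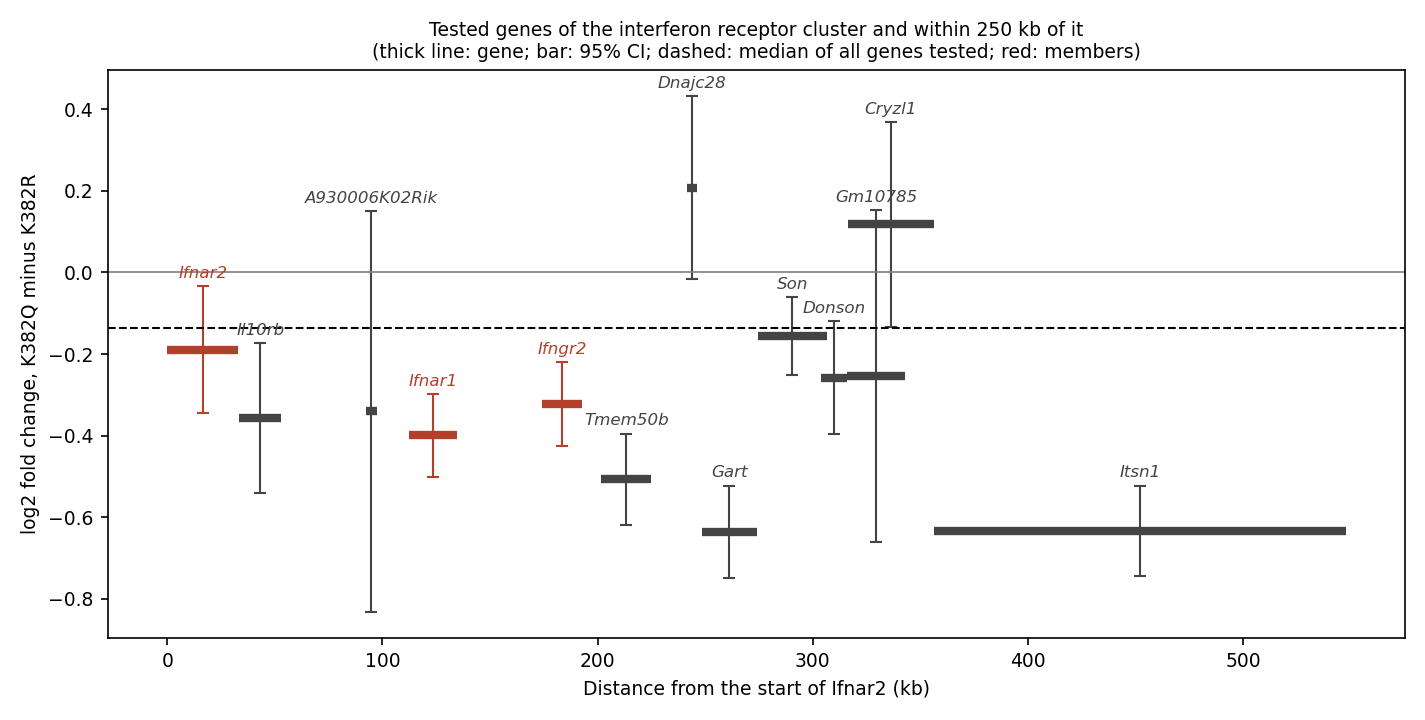
Log2 fold change, K382Q minus K382R (vertical axis, bars are 95% confidence intervals), of the 13 tested genes in the interferon receptor block of chromosome 16 and within 250 kb of it, against the distance in kb from the start of Ifnar2 (thick lines span the genes). The members (red) lie between −0.40 and −0.19, while the neighbours run from −0.64 (Gart) to 0.21 (Dnajc28).

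Of 21 interferon genes, 16 were listed at 0 TPM in all 6 libraries, among them Ifng, and none reached the level for testing. Ifnb1, the gene of IFN-β, was listed at 0 in the 3 K382Q libraries and at 0.084, 0.117 and 0.141 TPM in the 3 K382R libraries. The K382R values of Ifnb1 rest on a mean coverage of only 0.253 to 0.372 reads per base, too little to tell the groups apart. Ifna2 was at 0.087 TPM in K382Q replicate 2, at 0.045 TPM in K382R replicate 1 and at 0 elsewhere. The highest value of any ligand was 0.409 TPM (Ifnz, in K382R replicate 3). Without counts, no limit of detection can be given for these values.

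Of the other STATs, Janus kinases and partners, 7 of 9 genes were tested, and 5 were lower and 1 higher, beside 36.9% and 11.1% of all genes tested. After median-ratio scaling 4 were lower and 2 higher, beside 20.4% and 19.9%. Irf9, the DNA-binding partner of STAT2 in ISGF3, was at 36.5, 36.0 and 32.9 TPM in K382Q and at 51.9, 51.5 and 52.6 TPM in K382R cells (log2 fold change −0.56, SE 0.048, adjusted p = 5.86e-05). Stat5a, a factor of growth hormone and prolactin signalling, was at 37.6, 36.1 and 36.4 TPM against 55.8, 56.2 and 56.8 TPM (−0.61, adjusted p = 9.07e-06). Both had groups that lay apart, as Stat2 and Stat3 had. Stat5b, its close relative, was also lower (−0.29, adjusted p = 0.00146; −0.14 after median-ratio scaling, adjusted p = 0.0407). Stat6, the factor of IL-4 and IL-13, was the gene that was higher in K382Q cells, at 63.2, 64.4 and 60.6 TPM against 55.5, 57.4 and 56.9 TPM (0.15, adjusted p = 0.0129; 0.30 after median-ratio scaling). Jak3, the kinase of the common gamma chain, was at 22.0, 20.9 and 20.6 TPM against 18.1, 18.7 and 20.8 TPM, with overlap (0.14, adjusted p = 0.112). After median-ratio scaling Jak3 was called higher (0.29, adjusted p = 0.00732), and it shares 1362 bases with Insl3, which was at 0.996 to 2.33 TPM. Stat4 and Ifnlr1, the specific chain of the type III receptor, stayed below 0.3 TPM in every library.

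Of 18 genes that restrain JAK-STAT signalling, all were tested, 9 were lower and 0 higher, with a median of −0.19 beside −0.14, 36.9% lower and 11.1% higher over all genes tested. After median-ratio scaling 6 were lower and 1 higher (20.4% and 19.9% of all genes tested), with a median of −0.045. Usp18, which binds IFNAR2 and removes ISG15 from proteins, was at 20.5, 23.7 and 23.0 TPM in K382Q and at 65.5, 70.4 and 65.7 TPM in K382R cells (−1.56, adjusted p = 1.86e-06), and it was the 1 gene of this list that passed the fold change of 2. Socs3, the feedback inhibitor of STAT3 signalling, was at 14.88, 14.45 and 14.45 TPM against 28.2, 28.6 and 28.5 TPM (−0.94, adjusted p = 3.76e-06). Socs1, the inhibitor of interferon signalling that targets the Janus kinases, was low, at 0.995, 1.137 and 1.144 TPM against 2.54, 2.17 and 2.40 TPM (−0.85, adjusted p = 0.00118). By mean TPM its K382Q level was 46.0% of its K382R level, past a fold change of 2. With the pseudocount of 0.5 in the fit it fell short of that rule. These genes were named as the largest falls of the list. All K382Q libraries lay below all K382R libraries for each, as for 42.8% of all genes tested.

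Of 27 chains of other cytokine receptors that use JAK1, JAK2 or TYK2, 12 were tested, 8 were lower and 0 higher, and the median was −0.39 (7 lower and a median of −0.26 after median-ratio scaling; of all genes tested, 36.9% and 20.4% were lower on the respective scales). Il4ra, the IL-4 receptor chain, had the lowest log2 fold change (23.4, 23.3 and 23.6 against 51.5, 48.2 and 49.5 TPM, −1.07, adjusted p = 1.58e-06). Next were Lifr, the receptor of LIF (−0.98, adjusted p = 8.28e-05), and Osmr, that of oncostatin M (−0.72, adjusted p = 1.55e-05). These 3 had lower log2 fold changes than any of the 4 interferon receptor chains, whose median was −0.33. They were named as the largest falls of the 12 tested, so that order follows in part from the choice.

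Of 22 ISGF3 target genes, all were tested, 21 were lower and 0 higher (36.9% and 11.1% of all genes tested), and 17 passed the fold change of 2 (2.61% of all genes tested). Their median was −1.15, and −1.005 after median-ratio scaling, where 21 were again lower and 0 higher (20.4% and 19.9% of all genes tested). Ifit3 was at 8.75, 10.1 and 9.41 TPM against 40.2, 44.3 and 37.5 TPM (−2.05), Irf7, a factor that drives interferon genes, at 30.5, 35.6 and 31.7 TPM against 125, 132 and 122 TPM (−1.94), and Ifit1, which binds viral RNA caps, was at −1.90. Mx1 was the gene that did not pass the test (0.27 ± 0.15 against 0.63 ± 0.16 TPM, SD, n = 3, adjusted p = 0.0778).

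Of 20 genes that IFN-γ induces through GAS-binding STAT dimers (GAF), 18 were tested, and all 18 were lower, 10 of them past the fold change of 2, with a median of −1.15 (16 lower after median-ratio scaling). Over all genes tested 36.9% were lower, 2.61% past the fold change of 2, and 20.4% were lower after scaling. The chemokine Cxcl10 was at 37.5, 34.0 and 35.0 TPM against 146, 175 and 157 TPM (−2.15, adjusted p = 7.03e-07). Iigp1, an immunity-related GTPase, was at −1.88, and Gbp5, a guanylate-binding protein, at −1.79. The fall was not uniform over the list. Irf1 was at −0.13 (adjusted p = 0.0118), near the median of all genes tested (−0.14). After median-ratio scaling Irf1 was at 0.021 (adjusted p = 0.673). Ifit3, Iigp1 and Gbp5 belong to families with similar copies, and how shared reads were divided is not given in the sources used here, so their levels are uncertain.

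Of 18 STAT3 target genes, 17 were tested, 13 were lower and 1 higher, and the median was −0.62 (12 lower and 2 higher after median-ratio scaling). Of all genes tested, 36.9% were lower and 11.1% higher, and 20.4% and 19.9% after scaling. Timp1, an inhibitor of matrix metalloproteinases, was at 14.0, 15.1 and 12.0 TPM against 49.3, 44.5 and 51.3 TPM (−1.79, adjusted p = 4.28e-06). It was followed by Il4ra and Socs3, described above. Lcn2, which codes for the iron-siderophore binding protein lipocalin 2, was higher in K382Q cells (359, 382 and 327 against 253, 264 and 232 TPM, 0.51, adjusted p = 0.00048). The target lists were drawn up with earlier results of these data known, and their counts are a description.

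**Figure D5:**
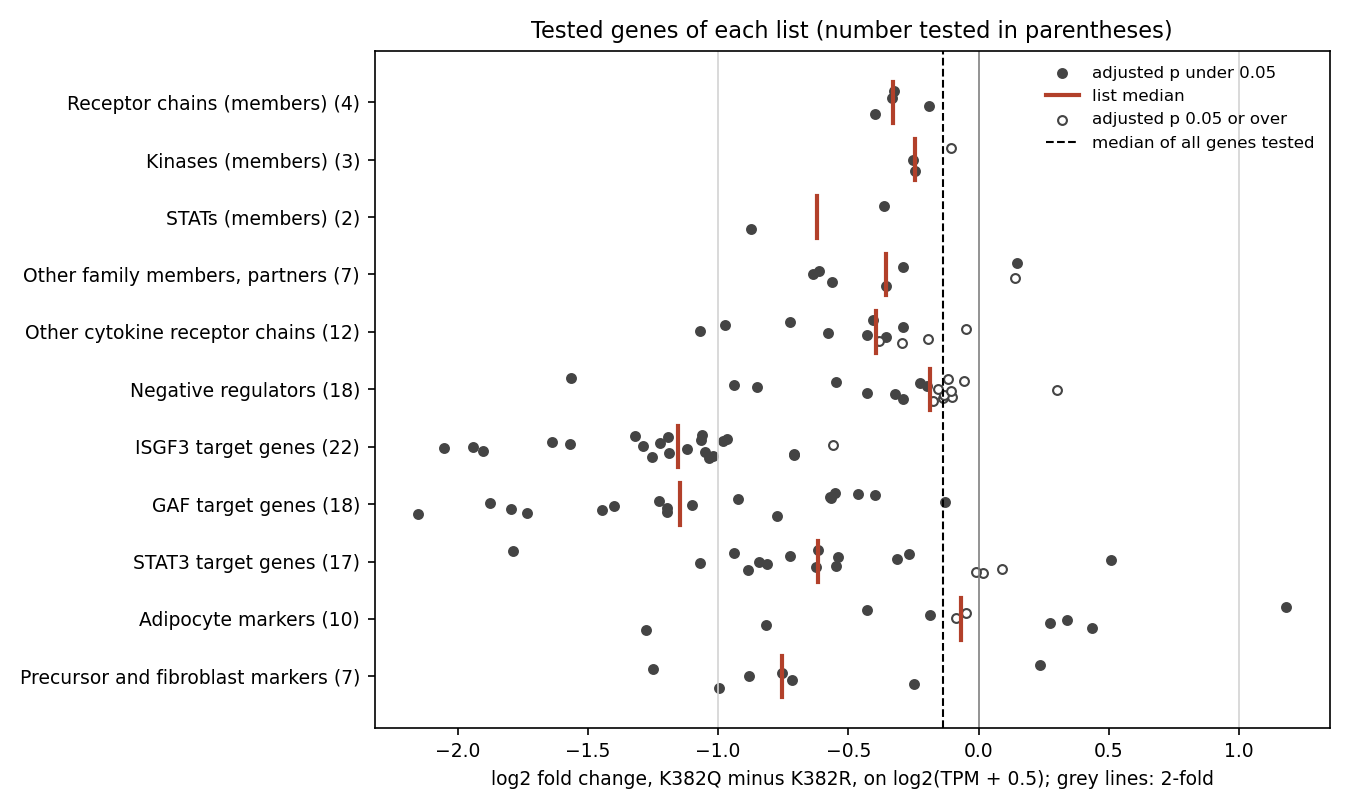
Log2 fold change, K382Q minus K382R (horizontal axis), of every tested gene of each list (points, filled at an adjusted p under 0.05), with the list median (red) and the median of all genes tested (dashed, −0.14). The members' classes have medians of −0.33, −0.24 and −0.62, the ISGF3 and GAF target genes −1.15, and the adipocyte markers −0.067, which becomes 0.086 after median-ratio scaling.

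Genes with a level pattern most like that of Stat2, by Pearson's r over the 6 libraries among 10643 genes with a mean of at least 5 TPM, were Simc1 (r = 0.99995), Tsr2 (r = 0.99991), Serpina3n (r = 0.99986), Pml, the organizer of PML nuclear bodies (r = 0.99982), and Prl2c2 (r = 0.99973). The 6 points form 2 groups of 3, so r reflects mainly the gap between the mutants, and 680 genes had an r over 0.99. The log2 fold changes of the 5 were −0.62, −0.64, −1.58, −0.74 and −2.77. Serpina3n and Prl2c2 have close copies, and their levels are uncertain for that reason.

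Markers of adipocytes and of their precursors moved with the groups, where 36.9% of all genes tested were lower and 11.1% higher, and 20.4% and 19.9% after median-ratio scaling. Of 10 adipocyte markers, all tested, 4 were lower and 4 higher in K382Q (3 lower and 5 higher after median-ratio scaling, where the list median went from −0.067 to 0.086), with summed levels of 55127 to 58763 TPM against 46056 to 47277 TPM. Adipoq (−1.28), Cebpa (−0.81) and Pparg (−0.43, or −0.28 when scaled) were lower, and Slc2a4 (1.18), Cd36 (0.43) and Fabp4 (0.34) higher. Pparg was at 1333, 1164 and 1104 TPM in K382Q and 1590, 1632 and 1612 TPM in K382R cells, with transgene and endogenous transcripts not told apart. Of 10 precursor and fibroblast markers, 7 were tested, 6 were lower and 1 higher on either scale, with summed levels of 1361 to 1413 TPM against 1615 to 1672 TPM; Thy1 (−1.25), Col1a1 (−0.996) and Pdgfra (−0.88) had the lowest fold changes, and Vim was higher (0.24, or 0.39 when scaled). Of 14 leukocyte and endothelial markers, 2 were tested, Cd68 and Pecam1, with 0 called, and the list summed to 5.39 to 6.37 TPM against 5.01 to 6.84 TPM. The leukocyte gene Ptprc was at 0.013 TPM in 1 library and at 0 in the other 5, and Adgre1, Cd3e and Ms4a1 were at 0 in all 6. The part of the adipocyte and precursor markers in the members' differences was not tested.

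The libraries held 5.95 to 7.50 Gb of aligned sequence in K382Q and 6.53 to 8.15 Gb in K382R cells. The first principal component, with 61.4% of the variance, separated the mutants, and K382Q replicate 1 lay farthest from the others on the second.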

How the data were processed

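RNA-seq values came from StringTie gene abundance tables, 1 for each library. The authors trimmed the reads with TrimGalore, aligned them to GRCm39 with HISAT2, sorted the alignments with SAMtools and ran StringTie; the annotation release is not given in the sources used here. The coverage (a signal of mean reads per base), the FPKM and the TPM were deposited by the authors, and TPM has a fixed sum per library, giving shares rather than amounts. Depth (aligned bases) was taken as coverage divided by FPKM. The counts that the authors tested were not analysed here. At most 5 repeated gene entries of a library were summed.

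The mutants were compared with limma 3.58.1 in R 4.3.3 fitted to log2(TPM + 0.5) with a variance trend, for genes that reached a TPM of 0.5 in 3 or more of 6 libraries; the pseudocount understates the change of low genes. P-values were adjusted by the Benjamini-Hochberg method over all genes tested. A fold change over 2 at an adjusted p under 0.05 is the study's rule for DEGs. Sums, ratios and figures used Python 3.11.15. Tested on simulated data (15170 genes tested, simulated K382Q against K382R), the fit called 46 and 49 of 50 genes lowered or raised by 1 on the log2 scale, 35 and 34 of 50 changed by 0.4, and 8 unchanged genes.

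Named were all 9 members, every tested gene of the ligand and partner lists, and the 5 genes most like Stat2. Of the other lists, up to 3 largest rises and 3 largest falls were named. Neighbours on chromosome 16 and some genes outside this rule, such as Ifnb1 and Irf1, were added. The members and lists were chosen with earlier results of these data known. Some single genes are left out of the results here. Alternatives were pseudocounts of 1 and 0.1, no filter, a TPM minimum of 1, FPKM, scaling by median ratios, quantile normalization, no trend, array weights, a block by replicate number, leaving out each library and a fold change over 1.5. Median-ratio scaling with a library left out or with the block was added after seeing the data. No pair of libraries was the same.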

Additional observations from a re-analysis of the deposited data

How the results depend on the processing

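Over the 16 alternatives named above other than the fold change, Ifnar1, Ifngr1, Ifngr2, Jak1, Stat2 and Stat3 stayed lower in K382Q cells in 16 of 16. The number of DEGs was 599, 379 with FPKM and 1864 with a fold change over 1.5. Ifnar2 lost its call with no filter (−0.19, adjusted p = 0.123), FPKM (−0.10), quantile normalization (−0.026), median-ratio scaling (−0.039), no intensity trend (−0.19, adjusted p = 0.0911), array weights (−0.18) and the replicate block (−0.19, adjusted p = 0.0671), and with a library left out it ran from −0.25 to −0.14. Jak2 lost its call with FPKM (−0.16), quantile normalization (−0.091) and median-ratio scaling (−0.10), and with a library left out it ran from −0.32 to −0.21. Tyk2 turned to 0.040 with median-ratio scaling and 0.042 with quantile normalization. Same-numbered libraries of both groups did not deviate together (correlations −0.018, 0.051 and 0.022). This cannot show whether they were handled together, which the labels do not say. On the deposited TPM the block changed no call of a member other than Ifnar2. The cause of these changes was not tested.

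On median-ratio scaled values, fits added after seeing the data called 4 to 7 members with a library left out, against 6 to 7 on the deposited TPM, and 5 with the replicate block; these fits called 33.2% to 37.0% of all genes tested with a library left out, 41.4% to 45.7% on the deposited TPM and 36.8% with the block, in either direction. There, with a library left out, Ifnar2 ran from −0.094 to 0.013 (above 0 without K382Q replicate 1 or K382R replicate 3), Ifngr2 from −0.19 to −0.15, Jak1 from −0.10 to −0.078, Jak2 from −0.16 to −0.065 and Tyk2 from 0.024 to 0.072. With the block they were −0.039 (Ifnar2), −0.091 (Jak1, adjusted p = 0.098), −0.10 (Jak2) and 0.040 (Tyk2). On the deposited TPM with a library left out, Ifngr2 ran from −0.35 to −0.30, Jak1 from −0.26 to −0.23 and Tyk2 from −0.12 to −0.074. The cause was not tested. Low values such as those of the ligands cannot be given a limit without counts.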
